A study of Homo sapiens with 12 samples.

Results

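The 40 mitosis genes described here were chosen as a list of symbols, from cyclin B to Ki-67, and all 40 were found, each on 1 line, among the 19128 gene symbols of the deposited expression table. They were measured in HT-29, an epithelial line from a human colorectal adenocarcinoma, whose polyadenylated RNA was sequenced as 100 nt paired reads in 12 libraries of 2 experiments. TBZ is the mix of TNFα at 20 ng/mL, BV6 at 2 µM, which antagonises inhibitor of apoptosis proteins, and the caspase blocker zVAD-fmk at 30 µM. This mix is used to drive necroptosis, a lytic death carried out by the pseudokinase MLKL. The second experiment had 8 libraries, 2 in each of 4 groups. These were cells carrying a lentiviral shRNA against MLKL (shMLKL) after 5 h of TBZ, shMLKL cells under DMSO, control cells carrying an shRNA against GFP (shGFP) after 5 h of TBZ, and shGFP cells under DMSO. The first experiment held 1 library for each of 4 groups, which were parental cells after 4 h of TBZ, parental cells under DMSO, shMLKL cells after 12 h of TBZ and shMLKL cells under DMSO. The labels do not say how many shRNAs or clones each line stands for, nor that the 2 libraries of a group are separate cultures. P-values thus cover only the spread between these libraries, which may be technical.

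A cell enters mitosis when cyclin B bound to CDK1 is switched on by CDC25 phosphatases, with polo-like and Aurora kinases acting beside it. The spindle assembly checkpoint then holds the anaphase promoting complex (APC/C) until kinetochores are attached to microtubules, after which kinesins and central spindle proteins part the chromosomes and the cell divides. Transcripts of most of these genes are low in G1 and peak in G2 and mitosis, through promoter elements read by the DREAM and MuvB complexes, FOXM1, B-MYB and NF-Y. In a bulk sample, fewer cells in G2 or mitosis and less RNA per cell cannot be told apart.

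Promoter windows are shown first, because members that move together can be compared with the boxes known for this gene class. RefSeq promoter windows (GRCh38.p14, 250 bases before to 50 after the annotated start) matched 34 of the 40 genes by symbol, with the first listed window taken for each. BUB3, TTK, AURKA, UBE2C, BIRC5 and TPX2 were not matched. The letters searched on both strands were TTTGAA and TTTAAA, the cores of the cell cycle genes homology region bound by MuvB, and CCAAT, the box bound by NF-Y. The 4 windows below belong to the matched genes with the largest TBZ change in shGFP cells. CDC25C was passed over there because its TBZ values are listed at 0. Capitals mark the letters found, with CCAAT on the opposite strand written as ATTGG and TTTGAA as TTCAAA.
PLK1: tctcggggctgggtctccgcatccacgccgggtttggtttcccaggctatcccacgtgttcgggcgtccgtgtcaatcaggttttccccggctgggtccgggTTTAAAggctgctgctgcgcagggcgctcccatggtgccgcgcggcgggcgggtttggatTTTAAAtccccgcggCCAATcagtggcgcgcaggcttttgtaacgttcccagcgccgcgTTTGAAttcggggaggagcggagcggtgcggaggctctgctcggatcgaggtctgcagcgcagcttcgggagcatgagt
KIF20A: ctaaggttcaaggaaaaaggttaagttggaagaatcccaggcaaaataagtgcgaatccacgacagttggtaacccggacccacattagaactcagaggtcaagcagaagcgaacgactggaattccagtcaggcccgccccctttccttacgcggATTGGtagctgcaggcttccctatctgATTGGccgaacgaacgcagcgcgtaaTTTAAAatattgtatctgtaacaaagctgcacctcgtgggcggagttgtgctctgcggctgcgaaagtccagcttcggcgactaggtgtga
BUB1B: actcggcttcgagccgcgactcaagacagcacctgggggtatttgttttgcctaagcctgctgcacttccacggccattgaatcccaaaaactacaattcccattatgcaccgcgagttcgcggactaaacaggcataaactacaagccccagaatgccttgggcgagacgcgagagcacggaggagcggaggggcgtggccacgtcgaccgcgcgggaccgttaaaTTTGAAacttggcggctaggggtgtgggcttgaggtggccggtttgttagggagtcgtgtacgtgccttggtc
DLGAP5: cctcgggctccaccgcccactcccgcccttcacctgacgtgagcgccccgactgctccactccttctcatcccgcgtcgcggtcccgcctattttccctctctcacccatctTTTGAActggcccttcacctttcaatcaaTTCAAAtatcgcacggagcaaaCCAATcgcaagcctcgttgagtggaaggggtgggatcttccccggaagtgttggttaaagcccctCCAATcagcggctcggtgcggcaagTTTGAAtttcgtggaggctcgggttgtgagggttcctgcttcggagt
The PLK1 window (chr16:23678639-23678938, forward strand) holds TTTAAA starting 148 and 88 bases before the start, CCAAT 73 bases before it and TTTGAA 29 bases before it. The KIF20A window (chr5:138178862-138179161, forward strand) holds TTTAAA 41 bases before the start and reversed CCAAT boxes 94 and 67 bases before it. That of BUB1B (chr15:40160819-40161118, forward strand) holds 1 box, TTTGAA, 23 bases before the start. In DLGAP5 (chr14:55191536-55191835, reverse strand) TTTGAA begins 3 bases after the start, with further copies 138 and, reversed, 109 bases before it, and CCAAT lies 87 and 22 bases before it. Of the 34 matched genes, 28 (82.4%) held TTTGAA or TTTAAA, against 15.2% of 8123 other tested genes. CCAAT stood in 26 of them (76.5%), against 37.2% of the other tested genes, and both kinds of box in 22 (64.7%), against 6.25%. Over all 35116 windows of the table the shares were 24% for TTTGAA or TTTAAA and 34.6% for CCAAT. Such matches are letters in a window and were not measured as binding. The median log2 TBZ change in shGFP cells was −0.55 for the 28 genes with TTTGAA or TTTAAA and −0.50 for the 6 without. For CCAAT it was −0.57 for the 26 genes with the box and −0.42 for the 8 without. CDC25C, listed at 0 under TBZ, is counted in both groups without a box, by its first listed window alone. Other starts of the matched genes were not searched for these counts, so a gene without a box here may hold one elsewhere.

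Levels below are FPKM as deposited, library by library, while a change or difference is one of log2(FPKM + 1). On that scale changes of low genes come out too small. All 40 genes passed the filter of a mean of at least 1 FPKM in 1 group. Averaged over the 8 libraries, levels ran between 2.399 FPKM for CDC25C and 70.3 FPKM for PTTG1. CDC25C is the 1 member with values of 0, in all 4 TBZ libraries, and an exact 0 in this table can be a missing estimate: the epithelial keratins KRT8 and KRT18 are listed at 0 in 7 of 8 libraries, and 50 genes are at 0 in 1 library with 5 FPKM or more in the other of its group. MLKL itself stood at 0.395 to 0.651 FPKM in the shMLKL libraries. In shGFP cells it had 1.98 and 2.03 FPKM under TBZ, against 3.95 and 3.89 FPKM under DMSO (log2 change −0.71). Of 12 colon epithelium markers 9 averaged at least 1 FPKM, EPCAM among them at 313 to 393 FPKM. KRT8 and KRT18 count among the 9 through shMLKL DMSO library 2 alone (694 and 535 FPKM), while CDX1 and CDX2 were at most 0.208 FPKM. Summed markers of fibroblasts, endothelium and liver did not exceed 0.429 FPKM. The 6 leukocyte markers summed to 4.59 to 6.71 FPKM, of which CD68 held 4.18 to 5.30 FPKM, and PTPRC reached at most 0.0609 FPKM. Relative depth lay between 82.9 and 100% of the deepest library, and absolute depth is unknown.

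**Figure D1:**
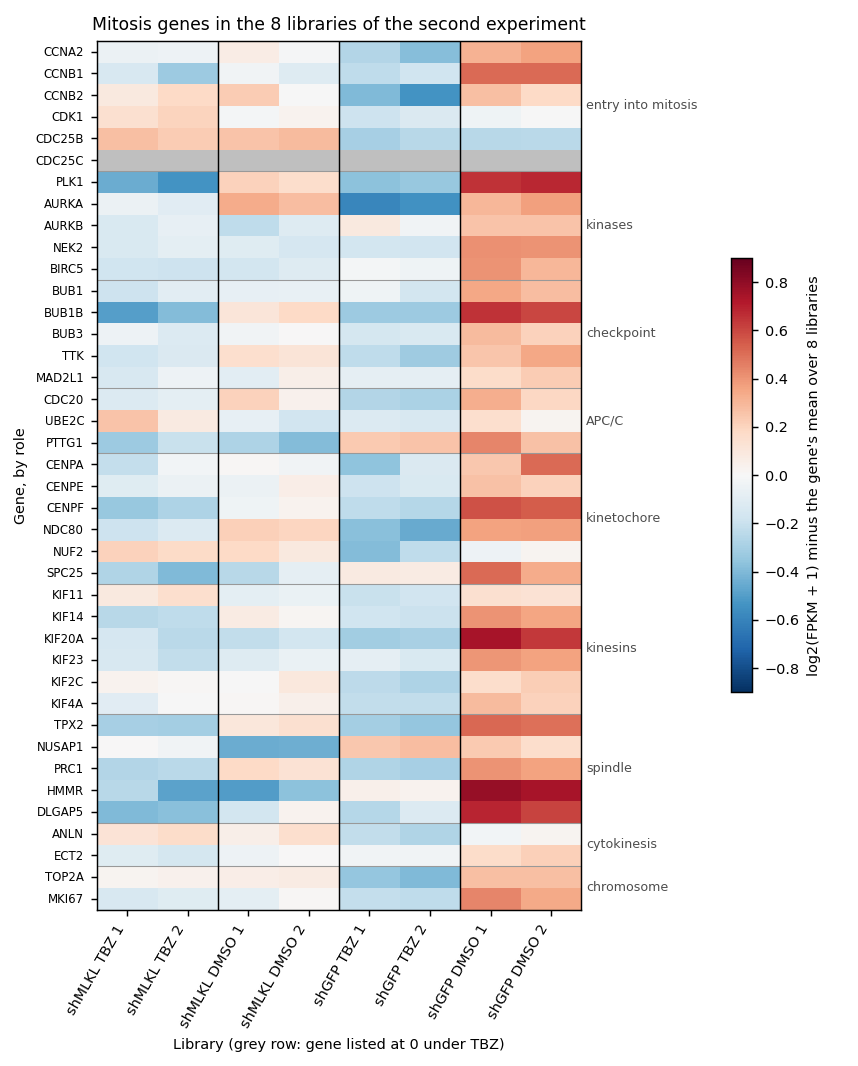
Each row is 1 of the 40 mitosis genes, grouped by role, and each column is 1 library of the second experiment. Colour gives log2(FPKM + 1) minus the gene's mean over the 8 libraries, with red above and blue below the mean. The shGFP DMSO columns are the reddest for most genes, and CDC25C is grey because it is listed at 0 under TBZ.

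TBZ against DMSO in shGFP cells shows how mitosis genes respond where no shRNA targets MLKL. In these cells 37 of the 40 fell and 0 rose (limma, BH-adjusted p under 0.05), against 37.3% of all 10364 tested genes called lower and 19.1% called higher. The median log2 change was −0.55 for the mitosis genes and −0.12 for all genes. At an unadjusted p under 0.05 the count that rose was also 0. The 3 genes not called were PTTG1, CDC25B and NUSAP1. Without CDC25C, 36 of 39 fell and the median was −0.53. With library medians set equal, 34 fell and 1 rose, against 28.2% and 22.6% of all genes. Summed over the 40 genes, FPKM came to 971 and 967 in the shGFP TBZ libraries, against 1354 and 1325 in the shGFP DMSO libraries.

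Of the 6 genes of mitotic entry, 5 fell in shGFP cells. CCNB1, the cyclin B1 gene (chromosome 5 of hg19, the build of all gene positions from here on, 68462837 to 68474070), stood at 24.8 and 25.8 FPKM under TBZ, against 42.3 and 42.2 FPKM under DMSO. Its log2 change was −0.71 (SE 0.06, limma BH-adjusted p = 7e-05). CCNB2, the cyclin B2 gene, had 27.1 and 24.5 FPKM under TBZ, against 43.5 and 40.9 FPKM under DMSO (log2 change −0.69, SE 0.08). Cyclin A2, which acts in S phase and G2, moved by a like amount (CCNA2, log2 change −0.66, SE 0.05). Their partner kinase CDK1 changed far less: 58.5 and 61.0 FPKM under TBZ, against 65.2 and 66.6 FPKM under DMSO (−0.14 by limma as a log2 change, with SE 0.04 and BH-adjusted p = 0.017). That call was lost without shGFP DMSO library 2 (−0.12, adjusted p = 0.0793), without shGFP TBZ library 1 (−0.11, adjusted p = 0.0939) and with library medians set equal (−0.07, adjusted p = 0.165). The CDC25 phosphatases, which activate CDK1, were unlike each other. CDC25B was at 22.3 and 23.0 FPKM under TBZ, against 23.0 and 23.2 FPKM under DMSO (log2 difference −0.03, 95% confidence interval −0.11 to 0.06). CDC25C was listed at 0 in both TBZ libraries, against 5.90 and 6.18 FPKM under DMSO, so no fold is given.

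All 5 genes of the mitotic kinase group fell in shGFP cells. PLK1, the kinase of centrosome maturation, mitotic entry and cytokinesis (chromosome 16, 23690201 to 23701688), had 13.5 and 13.8 FPKM under TBZ, against 28.4 and 28.9 FPKM under DMSO (−1.02 by limma as a log2 change, with SE 0.05 and BH-adjusted p = 1.8e-06). On the log2(FPKM + 1) scale no member with values above 0 in all libraries fell further. By the ratio of mean FPKM, TBZ over DMSO, KIF20A fell further (0.447, against 0.476 for PLK1). AURKA, the spindle pole kinase, moved by −0.90 (SE 0.04). NEK2, a kinase of centrosome separation, moved by −0.58. BIRC5, the survivin subunit of the chromosomal passenger complex, moved by −0.38 and AURKB, the kinase of that complex, by −0.23 (limma BH-adjusted p = 0.014 for AURKB). The AURKB call was lost without shGFP DMSO library 1 (−0.23, adjusted p = 0.0593), without shGFP DMSO library 2 (−0.23, adjusted p = 0.0583), without shGFP TBZ library 2 (−0.17, adjusted p = 0.0842) and with library medians set equal (−0.16, adjusted p = 0.0667).

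Checkpoint genes fell as well, 5 of 5. BUB1B, which encodes the checkpoint protein BubR1 (chromosome 15, 40453210 to 40513337), had 11.2 FPKM in both TBZ libraries, against 23.0 and 22.2 FPKM under DMSO (−0.96 by limma as a log2 change, with SE 0.05 and BH-adjusted p = 4.4e-06). The other checkpoint genes moved by −0.57 (the kinase TTK), −0.41 (the kinase BUB1), −0.39 (BUB3) and −0.28 (MAD2L1). In the APC/C group 2 of 3 fell: the activator CDC20 (−0.53) and the ubiquitin-conjugating enzyme UBE2C (−0.22, limma BH-adjusted p = 0.029). UBE2C lost its call without shGFP DMSO library 1 (−0.15, adjusted p = 0.168), without shGFP TBZ library 1 (−0.23, adjusted p = 0.0874), without shGFP TBZ library 2 (−0.21, adjusted p = 0.107), with no filter on low values (adjusted p = 0.0596) and with library medians set equal (−0.15, adjusted p = 0.0849). PTTG1, the securin that holds separase inactive (chromosome 5, 159848814 to 159855751), had 81.2 and 82.2 FPKM under TBZ, against 93.6 and 82.7 FPKM under DMSO (log2 difference −0.11, 95% confidence interval −0.27 to 0.05). PTTG1 has near-identical copies elsewhere in the genome, and how reads shared with them were assigned is not given in the sources used here.

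Each of the 6 kinetochore genes fell in shGFP cells: CENPF by 0.80 and NDC80, of the microtubule-binding NDC80 complex, by 0.78 on the log2 scale, the centromeric histone CENPA by 0.62, the motor CENPE by 0.40, and the NDC80 complex subunits SPC25 and NUF2 by 0.34 and 0.30. The SPC25 call was lost without shGFP DMSO library 1 (−0.26, adjusted p = 0.0786) and without shGFP TBZ library 2 (−0.34, adjusted p = 0.0510). NUF2 lost its call without shGFP DMSO library 2 (−0.26, adjusted p = 0.0558) and without shGFP TBZ library 1 (−0.22, adjusted p = 0.0532). All 6 kinesins fell too. KIF20A, the kinesin that carries the passenger complex to the central spindle (chromosome 5, 137514417 to 137523404), had 3.91 and 3.97 FPKM under TBZ, against 9.17 and 8.48 FPKM under DMSO (−0.99 by limma as a log2 change, with SE 0.07 and BH-adjusted p = 1.4e-05). The other 5 kinesins moved by −0.33 (KIF11, the spindle bipolarity motor) to −0.57 (KIF14), among them KIF23 of the central spindle (−0.49) and the microtubule depolymerase KIF2C (−0.44).

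Among the 5 spindle proteins 4 fell in shGFP cells. DLGAP5, a stabiliser of kinetochore microtubules (chromosome 14, 55614834 to 55658396), had 7.58 and 8.39 FPKM under TBZ, against 15.5 and 14.6 FPKM under DMSO (log2 change −0.84, SE 0.08). TPX2, the activator of Aurora A, moved by −0.83, and PRC1, the bundler of the central spindle, by −0.67. HMMR, a spindle and hyaluronan-binding protein (chromosome 5, 162887517 to 162918953), had 10.1 and 9.99 FPKM under TBZ, against 17.5 and 17.0 FPKM under DMSO (−0.73 by limma as a log2 change, with SE 0.08 and BH-adjusted p = 0.00027). NUSAP1, a microtubule bundler (chromosome 15, 41624892 to 41673248), had 73.1 and 75.2 FPKM under TBZ, against 72.7 and 68.9 FPKM under DMSO (log2 difference 0.07, 95% confidence interval −0.02 to 0.15). It was called higher with library medians set equal (0.13, adjusted p = 0.0219). The cytokinesis genes ANLN, an actin-binding protein of the cleavage furrow, and ECT2, which activates RhoA there, moved by −0.24 and −0.22. TOP2A, which untangles sister chromatids, moved by −0.64. MKI67, the proliferation marker Ki-67 (chromosome 10, 129894925 to 129924468), had 36.4 and 36.1 FPKM under TBZ, against 57.9 and 54.0 FPKM under DMSO (log2 change −0.61, SE 0.05).

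In shMLKL cells TBZ changed fewer of these genes and in both directions. Of the 40, 13 fell and 4 rose (limma, BH-adjusted p under 0.05), against 17.6% of all tested genes called lower and 20% called higher. The median log2 change was −0.08 for the mitosis genes and 0.00 for all genes. Leaving out CDC25C gave 12 lower of 39. Summed FPKM came to 1033 and 1035 in the shMLKL TBZ libraries, against 1081 and 1084 in the shMLKL DMSO libraries. CDK1, UBE2C and KIF11, which fell in shGFP cells, were higher here.

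PLK1 had 12.7 and 11.9 FPKM in shMLKL cells under TBZ, against 20.6 and 19.8 FPKM under DMSO (−0.67 by limma as a log2 change, with SE 0.05 and BH-adjusted p = 3.1e-05). BUB1B had 9.86 and 10.6 FPKM under TBZ, against 15.5 and 16.3 FPKM under DMSO (−0.59 by limma as a log2 change, with SE 0.05 and BH-adjusted p = 0.00011). Neither gene's groups overlapped, and both were among the larger falls in each line. The rule for named genes takes the largest changes, so this separation is no added evidence. CDC25C was again listed at 0 in both TBZ libraries, against 3.57 and 3.55 FPKM under DMSO. Further falls were those of TPX2 (−0.43), PRC1 (−0.41), AURKA (−0.38), NDC80 (−0.36), DLGAP5 (−0.33), CENPF (−0.31), TTK (−0.29), KIF14 (−0.28), CDC20 (−0.23) and ECT2 (−0.11). The ECT2 call was lost whichever 1 of the 8 libraries was left out (−0.14 to −0.09, adjusted p = 0.0536 to 0.195). DLGAP5 lost its call without shMLKL DMSO library 2 (−0.23, adjusted p = 0.0723), shMLKL TBZ library 1 (−0.31, adjusted p = 0.0611) or shMLKL TBZ library 2 (−0.34, adjusted p = 0.0541). CDC20 lost its call without shMLKL DMSO library 1 (−0.15, adjusted p = 0.164), either shMLKL TBZ library (adjusted p = 0.118 and 0.0860) or either shGFP TBZ library (adjusted p = 0.0531 and 0.0517), and with no filter on low values (adjusted p = 0.0605).

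Genes that rose in shMLKL cells came from 4 roles. NUSAP1 had 61.9 and 60.4 FPKM under TBZ, against 45.1 and 45.3 FPKM under DMSO (0.43 by limma as a log2 change, with SE 0.04 and BH-adjusted p = 0.00011). CDK1 had 74.1 and 77.0 FPKM under TBZ, against 66.2 and 68.4 FPKM under DMSO (0.17 by limma as a log2 change, with SE 0.04 and BH-adjusted p = 0.012). In both genes every TBZ library lay above every DMSO library, which can arise by chance with 2 libraries a group. UBE2C rose by 0.29 (adjusted p = 0.013 by limma) and KIF11 by 0.19 (adjusted p = 0.0065 by limma). The UBE2C call was lost without shMLKL DMSO library 2 (0.25, adjusted p = 0.0746) and without shMLKL TBZ library 1 (0.21, adjusted p = 0.0627), and that of CDK1 without shMLKL DMSO library 1 (0.14, adjusted p = 0.0693) and without shMLKL TBZ library 2 (0.14, adjusted p = 0.0673).

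Among the 23 genes not called in shMLKL cells were several with the larger falls in shGFP cells. KIF20A had 4.48 and 4.14 FPKM under TBZ, against 4.23 and 4.43 FPKM under DMSO (log2 difference −0.01, 95% confidence interval −0.16 to 0.15). HMMR had 8.06 and 6.69 FPKM under TBZ, against 6.58 and 7.34 FPKM under DMSO (log2 difference 0.07, 95% confidence interval −0.13 to 0.26). The groups of both genes overlapped. CCNB2 had 38.2 and 40.8 FPKM under TBZ, against 42.2 and 35.9 FPKM under DMSO (log2 difference 0.02, 95% confidence interval −0.17 to 0.21). CCNB1 had 26.5 and 23.2 FPKM under TBZ, against 28.7 and 27.05 FPKM under DMSO (log2 difference −0.16, limma BH-adjusted p = 0.084). It was called lower without shMLKL TBZ library 1 (−0.26, adjusted p = 0.0144), with library medians set equal (−0.19, adjusted p = 0.0384) and after quantile normalization (−0.22, adjusted p = 0.0320). MKI67 had 38.2 and 39.2 FPKM under TBZ, against 39.8 and 42.7 FPKM under DMSO (log2 difference −0.09, 95% confidence interval −0.20 to 0.02). PTTG1 (54.6 and 59.6 FPKM under TBZ, against 56.5 and 52.3 FPKM under DMSO) and CDC25B (33.5 and 32.5 FPKM under TBZ, against 33.1 and 33.8 FPKM under DMSO) were not called in either line.

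**Figure D2:**
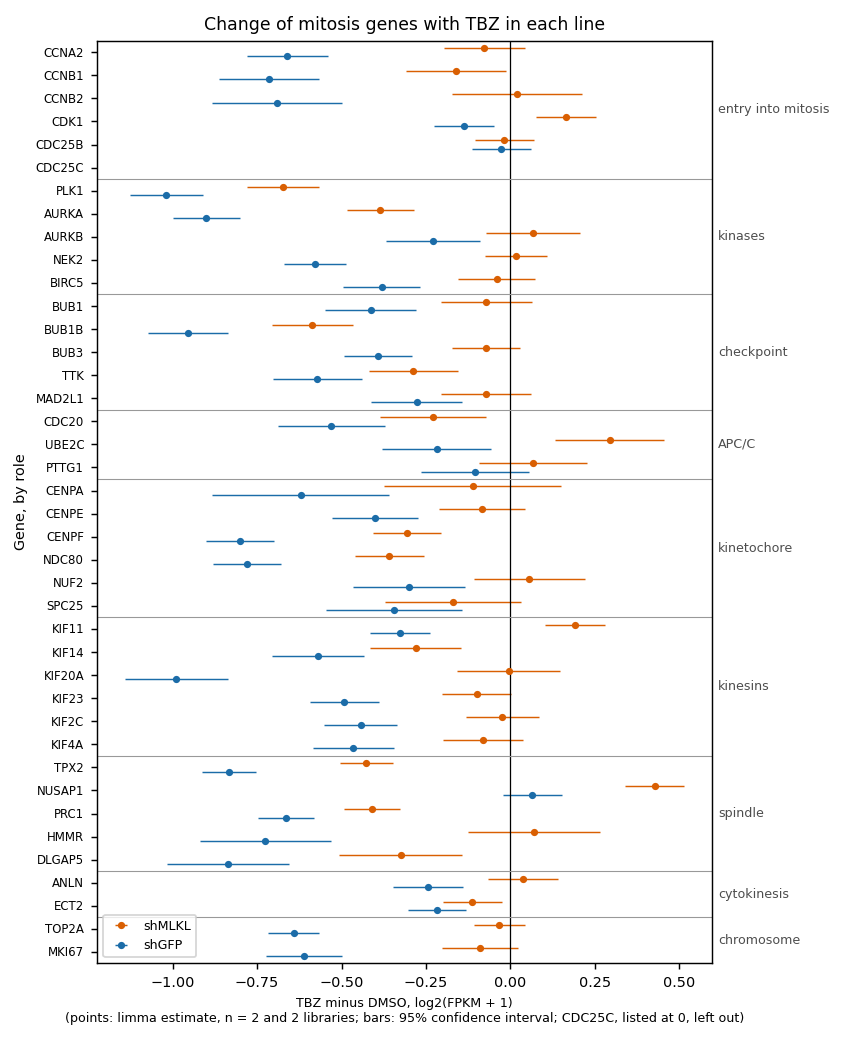
The horizontal axis gives the TBZ minus DMSO difference of log2(FPKM + 1) for 39 mitosis genes, listed by role down the page, in shMLKL cells (orange) and shGFP cells (blue). Points are limma estimates from 2 libraries a group and bars are 95% confidence intervals. The shMLKL points lie right of the shGFP points for every gene plotted, and the shGFP points of the genes that fell run from −1.02 (PLK1) to −0.14 (CDK1).

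Whether the TBZ effect differed between the lines was tested directly as the shMLKL effect minus the shGFP effect. This difference was above 0 for 33 of the 40 genes and below 0 for 0 of them (limma, BH-adjusted p under 0.05), against 14.6% of all tested genes called higher and 7.66% called lower. At an unadjusted p under 0.05 the counts were 36 and 0. Without CDC25C, whose call was also lost with a pseudocount of 0.1 (adjusted p = 0.0803), 32 of 39 passed. The median difference was 0.38 for the mitosis genes and 0.10 for all genes. KIF20A had the largest (0.98, SE 0.09, limma BH-adjusted p = 0.00048), then HMMR (0.80, SE 0.12) and CCNB2 (0.71, SE 0.12). TOP2A (0.61), NEK2 (0.59) and CCNA2 (0.58) followed. In the kinesin, kinase, spindle and chromosome groups every gene passed, 18 in all. The 7 genes that did not pass were CDC25B (0.01), ECT2 (0.11), PTTG1 (0.17), SPC25 (0.18), MAD2L1 (0.21), CDC20 (0.30) and CENPA (0.51). With library medians set equal, 24 of the 33 kept the call, while 6.72% of all genes were called higher and 10.5% lower. After quantile normalization 29 passed, against 10.3% of all genes called higher and 9.96% lower. Of the 33, 24 kept the call in every fit that left out 1 library, with counts of 25 without shMLKL TBZ library 2 to 30 without shMLKL DMSO library 2. The 9 that lost it in at least 1 such fit were ANLN, AURKB, BUB1, BUB1B, CENPE, DLGAP5, KIF14, NUF2 and TTK. KIF14 lost it whichever library was left out (adjusted p = 0.0673 to 0.121), as did TTK (adjusted p = 0.0537 to 0.116). Among these fits BUB1B lost it in 1, without shGFP DMSO library 1 (0.34, adjusted p = 0.0501). AURKB, KIF14, NUF2 and TTK also lost it after quantile normalization (adjusted p = 0.0699 to 0.172) and with no filter on low values (adjusted p = 0.0589 to 0.0690). CDC20 was called without shMLKL DMSO library 1 (0.38, adjusted p = 0.0342), CENPA without shGFP DMSO library 1 (0.64, adjusted p = 0.0489) and MAD2L1 without shMLKL DMSO library 2 (0.28, adjusted p = 0.0487). These differences rest on the shGFP DMSO libraries, which also enter the shGFP TBZ change and the DMSO comparison of the lines, so the 3 results are not independent.

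The starting level of these genes differed between the lines before TBZ. Under DMSO 33 of the 40 were lower in shMLKL than in shGFP cells and 1 was higher (limma, BH-adjusted p under 0.05), against 44.8% of all tested genes called lower and 18.3% called higher. The median log2 difference was −0.32 for the mitosis genes and −0.16 for all genes. With library medians set equal, the median of all genes moved to 0.01 and that of the mitosis genes to −0.15, and 19 of them were lower and 5 higher, against 26.6% and 30.1% of all genes. Those 5 were CDC25B (0.68), NUF2 (0.31), ANLN (0.28), CDK1 (0.20) and AURKA (0.14), of which CDC25B alone was called on the deposited scale. After quantile normalization 25 were lower and 2 higher, CDC25B and NUF2, against 29.8% and 27% of all genes, and the calls of CENPA, CENPE, KIF14, KIF2C, KIF4A, NDC80, TTK and UBE2C were lost (adjusted p = 0.0668 to 0.457).

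HMMR differed most under DMSO, with 6.58 and 7.34 FPKM in shMLKL cells, against 17.5 and 17.0 FPKM in shGFP cells (−1.20 by limma as a log2 difference, with SE 0.08 and BH-adjusted p = 2.1e-05). KIF20A had 4.23 and 4.43 FPKM in shMLKL cells, against 9.17 and 8.48 FPKM in shGFP cells (−0.88 by limma as a log2 difference, with SE 0.07 and BH-adjusted p = 2.8e-05). Without TBZ, HMMR in shMLKL cells was below its level in shGFP cells after TBZ (10.1 and 9.99 FPKM), and KIF20A was just above it (3.91 and 3.97 FPKM). DLGAP5 had 8.16 and 9.49 FPKM in shMLKL cells, against 15.5 and 14.6 FPKM in shGFP cells (log2 difference −0.71, SE 0.08). PTTG1 had 56.5 and 52.3 FPKM in shMLKL cells, against 93.6 and 82.7 FPKM in shGFP cells (log2 difference −0.69, SE 0.07). Next came NUSAP1 (−0.64), SPC25 (−0.59), CCNB1 (−0.58), CENPF (−0.56), NEK2 (−0.54), BIRC5 (−0.49), PLK1 (−0.48) and BUB1B (−0.48). CDC25C, which is listed above 0 in all 4 DMSO libraries, differed by −0.63 (3.57 and 3.55 FPKM in shMLKL cells, against 5.90 and 6.18 FPKM in shGFP cells). The 1 gene higher in shMLKL cells was CDC25B, the phosphatase of early mitotic entry (chromosome 20, 3767419 to 3786768), with 33.1 and 33.8 FPKM, against 23.0 and 23.2 FPKM in shGFP cells (0.51 by limma as a log2 difference, with SE 0.04 and BH-adjusted p = 2.6e-05). Genes not called included CDK1 (0.03, 95% confidence interval −0.06 to 0.12), AURKA (−0.03, −0.13 to 0.07), CDC20 (−0.13), CCNB2 (−0.11), NUF2 (0.14) and ANLN (0.11). Of the 33, 14 lost the call with library medians set equal, among them TOP2A (−0.04), KIF11 (−0.04), ECT2 (−0.04), PRC1 (−0.06) and BUB3 (−0.09), and 3 changed sign, to 0.00 (TTK), 0.01 (NDC80) and 0.03 (KIF2C). Leaving out 1 DMSO library ended 7 of the 33 calls: TTK (without any of shGFP DMSO 2, shMLKL DMSO 1 and shMLKL DMSO 2), CENPA (the same 3), UBE2C (shGFP DMSO 1 or shMLKL DMSO 2), KIF2C and MAD2L1 (shGFP DMSO 2 or shMLKL DMSO 1), NDC80 (shGFP DMSO 2 or shMLKL DMSO 2) and KIF4A (shGFP DMSO 1). Their adjusted p in those fits ran from 0.0507 (KIF4A) to 0.182 (TTK). Without shMLKL DMSO library 1 CCNB2 (−0.23, adjusted p = 0.0438) and CDC20 (−0.21, adjusted p = 0.0353) were also called lower, and ANLN was called higher (0.16, adjusted p = 0.0294).

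**Figure D3:**
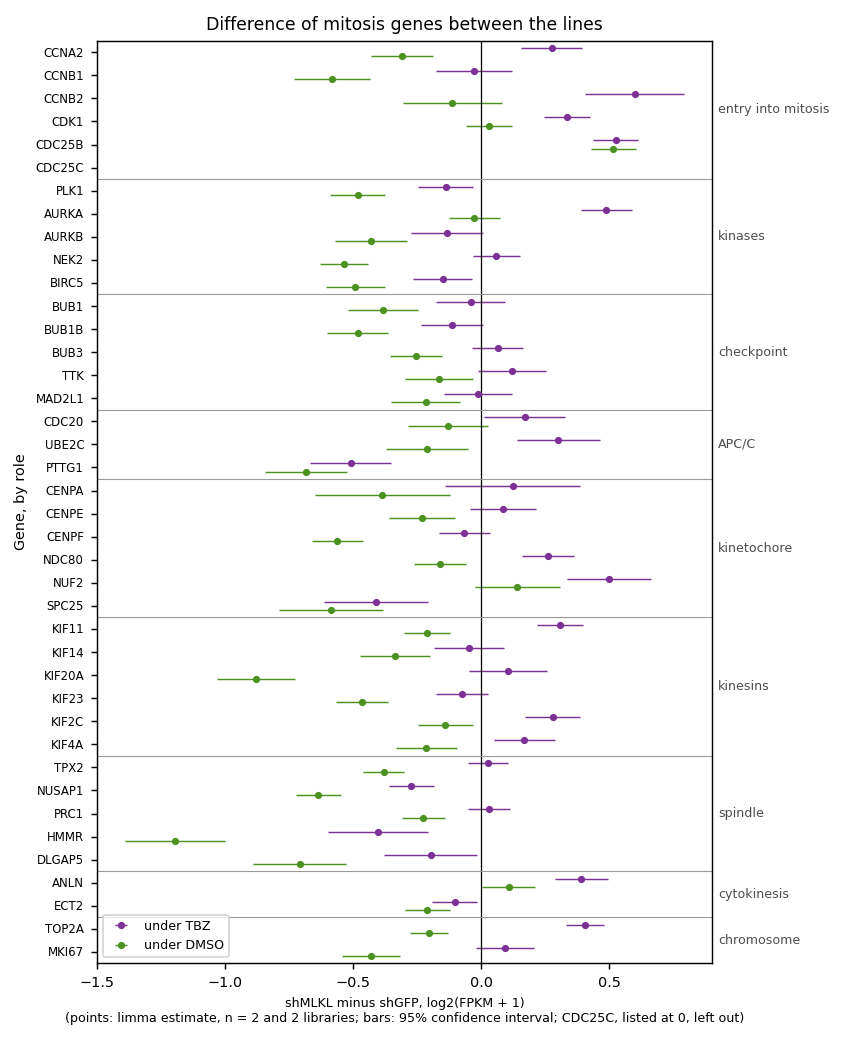
The horizontal axis gives the shMLKL minus shGFP difference of log2(FPKM + 1) for 39 mitosis genes by role, under TBZ (purple) and under DMSO (green). Points are limma estimates from 2 libraries a group and bars are 95% confidence intervals. Most DMSO points lie left of 0 and the TBZ points spread to both sides, with CDC25B at 0.52 under TBZ and 0.51 under DMSO.

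After 5 h of TBZ the lines differed in both directions. Of the 40 genes 13 were higher and 7 lower in shMLKL cells (limma, BH-adjusted p under 0.05), against 20.7% and 31% of all tested genes. The median log2 difference was 0.06 for the mitosis genes and −0.06 for all genes. With library medians set equal 19 were higher and 4 lower, against 27.3% and 22.7% of all genes, and after quantile normalization 15 were higher and 5 lower, against 25.7% and 23.6%. Compared by gene, 7 that were lower under DMSO were higher under TBZ (CCNA2, UBE2C, NDC80, KIF11, KIF2C, KIF4A and TOP2A), and 7 were lower under both (PLK1, BIRC5, PTTG1, SPC25, NUSAP1, HMMR and ECT2). With library medians set equal, every gene that went from lower to higher lost its DMSO call (limma BH-adjusted p = 0.0525 to 0.900). The share of all genes with such pairs of calls was not counted. CCNB2 differed most, with 38.2 and 40.8 FPKM in shMLKL cells, against 27.1 and 24.5 FPKM in shGFP cells (0.60 by limma as a log2 difference, with SE 0.08 and BH-adjusted p = 0.00081). CDC25B kept its DMSO difference (0.52 under TBZ), and NUF2 (0.50), AURKA (0.49), TOP2A (0.40), ANLN (0.39), CDK1 (0.33) and KIF11 (0.31) were also higher. PTTG1 was lower in shMLKL cells, at 54.6 and 59.6 FPKM, against 81.2 and 82.2 FPKM in shGFP cells (−0.51 by limma as a log2 difference, with SE 0.07 and BH-adjusted p = 0.00069). SPC25 (−0.41), HMMR (−0.40) and NUSAP1 (−0.27) were lower too. Differences of PLK1 (−0.14, adjusted p = 0.037), BIRC5 (−0.15, adjusted p = 0.034) and ECT2 (−0.10, adjusted p = 0.047) passed in limma with all 8 libraries and were lost with library medians set equal, those of PLK1 and BIRC5 also after quantile normalization (adjusted p = 0.198 and 0.181). The lower count was 5 without either shGFP DMSO library (PLK1 and ECT2 lost) or without shMLKL TBZ library 1 (BIRC5 and ECT2 lost). It was 4 without shGFP TBZ library 1, shGFP TBZ library 2 or shMLKL TBZ library 2, and in each of those fits the calls of PLK1, BIRC5 and ECT2 were lost. KIF4A (0.17) lost its call without shGFP TBZ library 1 (adjusted p = 0.0882), shGFP TBZ library 2 (adjusted p = 0.0951) or shMLKL TBZ library 2 (adjusted p = 0.139). CCNB1, BUB1B, KIF20A, TPX2, PRC1 and MKI67 were not called, at −0.03, −0.11, 0.10, 0.03, 0.03 and 0.09.

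**Figure D4:**
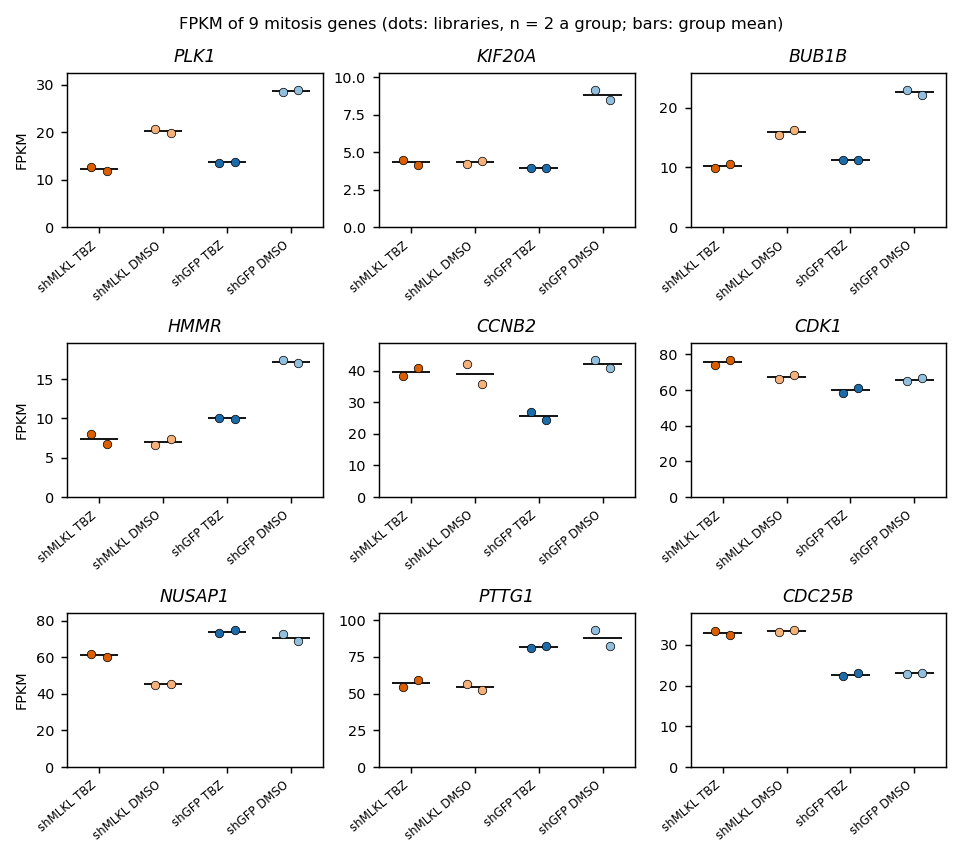
FPKM on a linear axis starting at 0 is shown for 9 mitosis genes, with 1 dot a library and a bar at the mean of the 2 libraries of each group. PLK1 and BUB1B are lower under TBZ in both lines, KIF20A and HMMR in shGFP cells, NUSAP1 is higher under TBZ in shMLKL cells, and PTTG1 and CDC25B differ mainly between the lines.

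Other genes of mitosis, from a list of 115 symbols of which 104 were in the table and 102 were tested, gave a setting for the 40. The 115 include older and newer names of the same gene, such as WAPAL and WAPL, so an absent symbol need not be an absent gene. In shGFP cells 64 of the 102 fell with TBZ and 4 rose (limma, BH-adjusted p under 0.05), with a median log2 change of −0.27, against 37.3% of all tested genes lower and 19.1% higher. The largest falls were those of HJURP, the chaperone that loads CENPA (−1.36), the cyclin CCNF (−1.03) and the APC/C inhibitor FBXO5 (−0.998). The 4 that rose were MASTL, the Greatwall kinase (0.85), WEE1, the inhibitory kinase of CDK1 (0.45), CKS2, a CDK-binding subunit (0.43), and UBE2S, a ubiquitin-conjugating enzyme of the APC/C (0.31), which was named after its values were seen. WEE1 had 28.7 and 26.4 FPKM under TBZ, against 19.2 and 20.8 FPKM under DMSO in shGFP cells. In shMLKL cells WEE1 fell, with 12.0 and 11.3 FPKM under TBZ, against 15.5 and 14.6 FPKM under DMSO (−0.34 by limma as a log2 change, with SE 0.06 and BH-adjusted p = 0.0041), and the effects differed by −0.79 (limma BH-adjusted p = 0.0011). In shMLKL cells 15 of the 102 fell (14.7%, against 17.6% of all genes) and 11 rose (10.8%, against 20% of all genes), so neither share exceeded that of all genes. The falls were led by NUMA1 (−0.45), PDS5B (−0.42) and CCNF (−0.39), and the rises by MASTL (0.55), the separase gene ESPL1 (0.46) and MAD1L1 (0.40). FOXM1, the transcription factor of G2 and mitosis genes, fell in both lines (−0.21 in shMLKL cells and −0.40 in shGFP cells), and MYBL2, which encodes B-MYB, fell by 0.14 in shGFP cells and had a difference of −0.04 in shMLKL cells. The shMLKL effect minus the shGFP effect was above 0 for 36 of the 102 and below 0 for 2, WEE1 and MASTL, against 14.6% and 7.66% of all genes. Under DMSO 62 were lower and 10 higher in shMLKL cells, against 44.8% and 18.3% of all genes, and under TBZ 28 were higher and 21 lower, against 20.7% and 31%.

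The first experiment had 1 library a group, so its values carry no test and no error between replicates. After 4 h of TBZ in parental cells 37 of the 40 mitosis genes were below their DMSO value, against 63.0% of 10870 genes. By at least 0.5 on the log2 scale 30 of the 40 were lower, against 31.5% of the 10870 genes. Their median log2 difference was −0.79, and that of all genes −0.21. PLK1 had 4.88 FPKM after TBZ, against 20.2 FPKM under DMSO, KIF20A 2.19 against 9.65 FPKM, AURKA 7.10 against 27.1 FPKM and BUB1B 2.62 against 9.29 FPKM. Leaving aside CDC25C, these 4 had the largest drops of the list in parental cells, and the same 4 had the largest falls in shGFP cells of the second experiment, where the lines, times and libraries were others. With the highest transcript of a gene in place of the sum, AURKA dropped by 0.96 on the log2 scale in parental cells and was not among the 4 largest. Besides PLK1, KIF20A and BUB1B, larger drops were then those of KIF23, TPX2, CCNA2, DLGAP5, CENPF, CDC25B, TTK, NDC80, CCNB1 and KIF2C. CDC25C was listed at 0 after TBZ and at 5.38 FPKM under DMSO in parental cells, and at 0 in both shMLKL libraries. NUSAP1, PTTG1 and BUB1 were not below DMSO in parental cells, at 33.0 against 32.5 FPKM, 35.4 against 32.4 FPKM and 5.18 against 5.17 FPKM. With assembled transcripts added, which BUB1 gained under DMSO alone, BUB1 stood at 5.18 against 11.0 FPKM, and 38 genes were then below DMSO. By the highest transcript NUSAP1 was below DMSO as well (log2 difference −0.24).

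After 12 h of TBZ in the shMLKL cells of the first experiment 35 of the 40 were below DMSO, against 58.0% of all genes. By at least 0.5 on the log2 scale 20 were lower, against 25.6% of all genes. The median log2 difference was −0.49, and −0.12 for all genes. BUB1B had 4.43 FPKM after TBZ, against 9.14 FPKM under DMSO, PLK1 12.1 against 16.9 FPKM and KIF20A 3.52 against 4.83 FPKM. Line and time differ together between these comparisons and cannot be told apart. UBE2C (66.0 against 55.2 FPKM), CDC25B (21.6 against 18.8 FPKM), KIF4A (8.45 against 6.28 FPKM) and BUB3 (49.4 against 49.1 FPKM) lay above DMSO after 12 h. With assembled transcripts of a gene added, 14 genes were down by at least 0.5 after 12 h. No share of all genes was computed with assembled transcripts. KIF4A (8.45 against 11.6 FPKM) and CDC25B (21.6 against 24.5 FPKM) were then below DMSO, while NEK2 (14.5 against 14.0 FPKM) and ECT2 (25.8 against 25.2 FPKM) were above it. Assembled values were added library by library and left out where the Cufflinks gene identifier was shared with another gene. KIF4A and CDC25B gained them under DMSO alone and NEK2 after TBZ alone, so these turns rest on an uneven addition. By the highest transcript BUB3 was below DMSO (log2 difference −0.29) and NUSAP1 above it (0.01). CDK1 is the clearest case: it was listed at 0 in annotated transcripts after 12 h, against 12.96 FPKM under DMSO, and at 13.6 against 26.2 FPKM with assembled transcripts, while MAD2L1 stood at 0.902 against 9.55 FPKM and, with assembled transcripts, at 5.64 against 9.55 FPKM. Between the DMSO libraries 28 of the 40 were lower in shMLKL than in parental cells, against 43.8% of all genes. By at least 0.5 on the log2 scale 10 were lower and 2 higher, against 14% and 18.4% of all genes. The median log2 difference was −0.24, against 0.05 for all genes. HMMR had 5.78 FPKM in shMLKL cells, against 7.25 FPKM in parental cells, and KIF20A 4.83 against 9.65 FPKM. CDC25B (18.8 against 34.9 FPKM) was opposite in direction to the second experiment. So were others that were called lower there and lay higher here, among them CCNB1 (33.8 against 22.2 FPKM), NDC80 (16.1 against 9.99 FPKM), BUB1, CCNA2, MKI67 and NEK2. With assembled transcripts added CCNB1 (33.8 against 37.2 FPKM), BUB1 and MKI67 were lower in shMLKL cells, while NDC80, CCNA2 and NEK2 stayed higher.

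**Figure D5:**
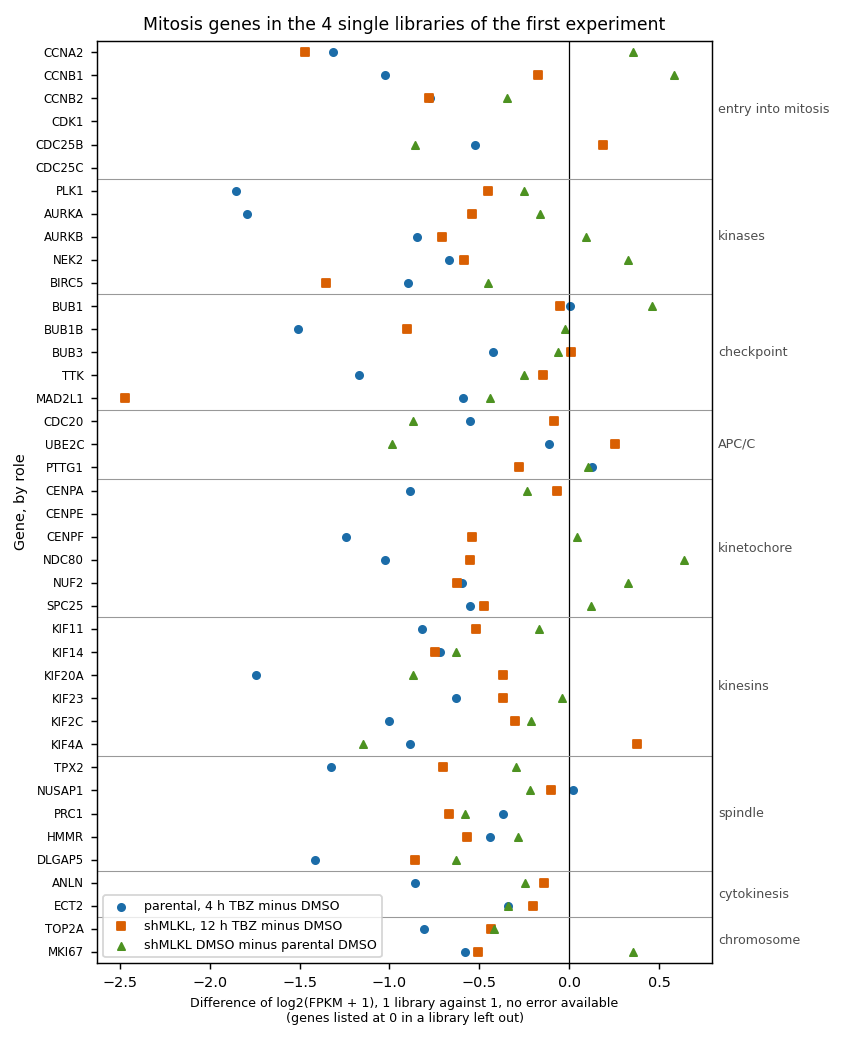
The horizontal axis gives differences of log2(FPKM + 1) between single libraries of the first experiment for 37 mitosis genes by role: 4 h of TBZ minus DMSO in parental cells (blue circles), 12 h of TBZ minus DMSO in shMLKL cells (orange squares) and shMLKL DMSO minus parental DMSO (green triangles). No error is available. Most blue and orange points lie left of 0, and the 3 genes listed at 0 in a library (CDK1, CDC25C and CENPE) are left out.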

How the data were processed

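Libraries were made from polyadenylated RNA with a stranded kit, per the labels' protocols. The submitters' processing notes name STAR 2.4.0f1, GATK, Cufflinks 2.2.1 and TopHat2 2.0.13 with the hg19 build, and give no order. For the second experiment the authors deposited 1 table of gene values over 8 libraries, read as FPKM from the values and the use of Cufflinks, since its header names no unit. For the first experiment the authors deposited Cufflinks transcript lists with FPKM, summed here over the annotated transcripts of a gene. In those lists an 89 bp entry on chromosome 1 (567705 to 567793) took 83.3 to 89.9% of all FPKM. It was not compared with gene annotation here. UBE2C, BUB1B, CDC25B, CENPA and PRC1 share a Cufflinks gene identifier with another gene. No file gave read counts, so count tests were not run and no counting interval can be given.

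Where a symbol had several lines, that of highest mean was used. The 10364 genes that averaged 1 FPKM or more in any group were fitted as log2(FPKM + 1) with limma 3.58.1 in R 4.3.3, using 4 group means, empirical Bayes with a trend and 4 residual plus 3.46 prior degrees of freedom. The 5 contrasts were called at a Benjamini-Hochberg (BH) adjusted p under 0.05, two-sided, over all genes. On simulated data for the shGFP contrast (10364 genes) the fit recovered 92% of genes set to −1, 68% at −0.5, 76% at 0.5 and 96% at 1, with 10 false calls. In that simulation 50 genes were set to each change, noise was independent between genes and no shift was given to whole libraries. The changed genes were drawn only from those whose log2 of mean FPKM + 1 exceeded 2, which leaves out low members such as CDC25C. They were also far fewer than the 37.3% called lower and 19.1% called higher in the data. The simulation thus does not give error rates for low genes, for so many changes or under a shift such as the median of −0.12 over all genes in that contrast. Relative depth came from the commonest ratio of values at 0.15 FPKM or less. Members, other gene lists, promoter letters and the rule for named genes were chosen with earlier results of these data known. That rule gave values in every library for PLK1, CCNB1, CDK1 and MKI67, for the 4 largest changes in each TBZ contrast and between the lines under DMSO, the 2 largest under TBZ, the 3 largest differences of effects and the highest and lowest member. Further library values were chosen after they were seen. The table paired symbols with values, and RefSeq windows of GRCh38.p14 were matched by symbol only, while gene positions come from the deposited transcript lists (hg19).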

Additional observations from a re-analysis of the deposited data

Results flagged for a closer look

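The TBZ effect differed between the lines for 33 of the 40 mitosis genes by the limma test of the difference itself (BH-adjusted p under 0.05), always as a more positive effect in shMLKL than in shGFP cells. Of all tested genes 14.6% were called more positive and 7.66% more negative. With library medians set equal 24 of the 33 kept the call. The 9 that lost it were ANLN, AURKB, BIRC5, BUB1, CENPE, KIF14, NUF2, PRC1 and TTK. Calls that were lost when 1 library was left out are given above. The values below are the shMLKL effect minus the shGFP effect on the log2 scale. Among genes of mitotic entry they were 0.58 for CCNA2, 0.55 for CCNB1, 0.71 for CCNB2 and 0.30 for CDK1. In the kinase group PLK1 had 0.34, AURKA 0.52, AURKB 0.30, NEK2 0.59 and BIRC5 0.34. Checkpoint genes gave 0.34 for BUB1, 0.37 for BUB1B, 0.32 for BUB3 and 0.28 for TTK, and UBE2C of the APC/C group gave 0.51. For kinetochore genes the differences were 0.32 for CENPE, 0.50 for CENPF, 0.42 for NDC80 and 0.36 for NUF2. Kinesins gave 0.52 for KIF11, 0.29 for KIF14, 0.98 for KIF20A, 0.39 for KIF23, 0.42 for KIF2C and 0.38 for KIF4A. Spindle genes gave 0.41 for TPX2, 0.36 for NUSAP1, 0.26 for PRC1, 0.80 for HMMR and 0.51 for DLGAP5. ANLN had 0.28, TOP2A 0.61 and MKI67 0.52. CDC25C is among the 33 but is listed at 0 under TBZ in both lines, so its value is not given. All 33 share the 8 libraries, and the level of most of these genes under DMSO also differed between the lines. The part of that level difference in these values was not tested.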

How the results depend on the processing

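With library medians set equal, 1 mitosis gene (NUSAP1) was called higher under TBZ in shGFP cells, 5 were higher and 19 lower in shMLKL cells under DMSO, and 4 were lower in shMLKL cells under TBZ. Quantile normalization gave 2 higher under DMSO. Leaving out 1 library gave 1 to 2 higher and 28 to 33 lower under DMSO, and 4 to 7 lower under TBZ. The other counts stayed within 1.5 times under all alternatives run, and leaving out 1 library gave 34 to 37 lower with TBZ in shGFP cells, 10 to 12 lower and 3 to 4 higher in shMLKL cells, and 25 to 30 differing effects. Signs that turned with medians set equal were those of CDC25B in shGFP cells (0.037), CCNB2 in shMLKL cells (−0.0080), CDC25B in the difference of effects (−0.083), CCNB2 (0.056), TTK (0.0043), NDC80 (0.0078) and KIF2C (0.028) under DMSO, and CCNB1 under TBZ (0.047). Quantile normalization turned CCNB2 in shMLKL cells (−0.049), CDC25B in the difference of effects (−0.045) and CCNB1 under TBZ (0.013). Leaving out 1 library, changes in shMLKL cells ran from −0.094 to 0.13 for CCNB2, −0.039 to 0.0041 for CDC25B, −0.051 to 0.040 for KIF20A and −0.049 to 0.19 for HMMR, the difference of effects from −0.013 to 0.032 for CDC25B, and the line difference from −0.23 to 0.00083 for CCNB2 under DMSO and −0.12 to 0.063 for CCNB1 under TBZ. The cause was not tested.

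With the replicate number as a block, 37 fell in shGFP cells (36.4% of all genes). In shMLKL cells 12 fell and 4 rose (16.8% and 19% of all genes). Effects differed for 30, all more positive in shMLKL cells (12.6% of all genes). Between the lines 1 was higher and 32 lower under DMSO (18% and 44.2%), and 13 were higher and 6 lower under TBZ (20.2% and 30.2%). In each fit without 1 library, the share of all genes with a more positive effect in shMLKL cells was also below that of the full fit. Residuals of same-numbered libraries correlated at −0.066 to 0.028, so the numbers were not taken to pair the samples. The lone library of a group was assumed to vary like the others. Counts with CDC25C or RFC4 left out, and first-experiment values with assembled transcripts, were chosen after seeing the data. Absolute depth is unknown, and 2 libraries a group limit the precision.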

Other observations

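Genes of DNA replication and the G1 to S step, 33 tested of a list of 34 chosen with earlier results known, were counted in the same way. In shGFP cells 21 fell and 1 rose with TBZ (limma, BH-adjusted p under 0.05; median log2 change −0.33), against 37.3% of all tested genes lower and 19.1% higher. In shMLKL cells 3 fell (9.09%, against 17.6% of all genes) and 6 rose (18.2%, against 20%), and neither share exceeded that of all genes. The effects differed between the lines for 15 of them by limma at the same limit, each more positive in shMLKL cells, against 14.6% of all genes. Under DMSO 29 were lower and 1 higher in shMLKL than in shGFP cells (median −0.47), against 44.8% and 18.3% of all genes, and under TBZ 15 were lower and 4 higher (median −0.20), against 31% and 20.7%. RFC4 is listed at 0 in all 4 shMLKL libraries, where a 0 can be a missing estimate, and stood at 11.3 and 11.8 FPKM in shGFP cells under TBZ and 19.8 and 19.0 FPKM under DMSO. Without it 20 fell in shGFP cells, 14 effects differed, 28 were lower under DMSO and 14 lower under TBZ.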
